A study of Mus musculus with 4 samples.

Results

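Pck1, Pfkfb2, Hk1 and Hk3 are 4 genes at control points of liver glucose metabolism, and they were followed here through maps of histone H3 lysine 27 acetylation (H3K27ac), a mark of active promoters and enhancers, in resting and regenerating mouse liver. They were chosen by their listing and their promoter regions in these same tables, with earlier results of these data known, so their values are a description and carry no test. All 4 were named in at least 1 of the deposited tables, 2 of them in sham and 4 after hepatectomy, among 7090 protein-coding genes with a listed transcription start site (TSS). The tissue was liver of wild-type C57/BL6J mice, either sham-operated or taken 12 h after removal of 70% of the liver (partial hepatectomy, PHx), with 2 libraries per group. The sham labels carry no sampling time, although the design text speaks of 0 h, and nothing used here states age, sex, feeding or time of day. H3K27ac was mapped by CUT&Tag, in which an antibody guides a transposase that cuts and tags the DNA at the mark. The authors deposited 1 merged list of regions per group on GRCm39, with positions and widths but no signal. Depth is therefore unknown and there is no replicate error. A gene could only be described by whether a region lay at its TSS, how wide it was, and what lay around it.

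The liver both makes and breaks down glucose, and the genes here stand on either side. Pck1 encodes the cytosolic phosphoenolpyruvate carboxykinase, which commits carbon to gluconeogenesis and is induced by glucagon and glucocorticoids in fasting and repressed by insulin. Hexokinases such as Hk1 and Hk3 trap glucose in the cell by phosphorylation and so open glycolysis, and Hk1 is found in most cell types outside hepatocytes and Hk3 chiefly in myeloid cells. Pfkfb2 encodes one of the bifunctional enzymes that make and remove a signalling fructose bisphosphate, distinct from the fructose bisphosphate that is an intermediate of glycolysis. This signal molecule speeds phosphofructokinase and slows fructose bisphosphatase and thereby sets the direction of flux. The liver regains its mass after partial hepatectomy while the remnant must still supply the body with glucose.

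The DNA just upstream of the start sites is shown because each of these promoters carried an H3K27ac region in at least 1 group. The 250 bases before the start come from RefSeq (GRCm38.p6) and were matched by symbol, which all 4 genes were. For Pck1, Pfkfb2 and Hk1 the entry shown has the same distance from start to gene end as the transcript the authors used (6202, 26779 and 71567 bp). For Hk3 the only entry lies 566 bp farther from the gene end than the authors' transcript of 14835 bp. Capitals mark matches on either strand to 10 short motifs, each searched without mismatch.
Pck1: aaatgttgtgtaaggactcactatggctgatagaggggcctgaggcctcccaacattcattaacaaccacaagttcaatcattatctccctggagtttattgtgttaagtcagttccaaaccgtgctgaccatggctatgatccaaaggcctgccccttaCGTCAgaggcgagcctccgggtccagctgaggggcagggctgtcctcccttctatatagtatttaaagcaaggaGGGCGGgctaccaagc
Pfkfb2: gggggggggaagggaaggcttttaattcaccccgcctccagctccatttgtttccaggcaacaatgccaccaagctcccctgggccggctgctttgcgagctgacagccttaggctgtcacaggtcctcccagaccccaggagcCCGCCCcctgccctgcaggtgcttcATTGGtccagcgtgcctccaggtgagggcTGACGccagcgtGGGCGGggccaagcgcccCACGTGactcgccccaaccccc
Hk1: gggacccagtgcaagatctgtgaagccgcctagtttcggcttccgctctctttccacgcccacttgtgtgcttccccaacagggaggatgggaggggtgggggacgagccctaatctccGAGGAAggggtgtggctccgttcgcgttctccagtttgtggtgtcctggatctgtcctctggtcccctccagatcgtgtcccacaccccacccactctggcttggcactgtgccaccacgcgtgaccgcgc
Hk3: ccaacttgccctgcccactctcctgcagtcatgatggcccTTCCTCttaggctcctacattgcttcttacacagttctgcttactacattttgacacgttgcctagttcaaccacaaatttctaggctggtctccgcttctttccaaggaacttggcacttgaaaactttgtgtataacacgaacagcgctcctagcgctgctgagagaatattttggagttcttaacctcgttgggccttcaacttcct

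In the Pck1 window the capitals are a half-site of the cAMP response element (TGACG, here on the reverse strand, 90 to 86 bases before the start) and a GC box (GGGCGG) close to the start. The half-site was present in 17.8% of 32851 RefSeq windows of the same length and the GC box in 32.7%. Pfkfb2 held the most kinds of match, with the half-site 52 to 48 bases before the start, an E-box (CACGTG, in 6.02% of windows) 22 to 17 bases before it, a CCAAT box (in 33.8%) and 2 GC boxes. In the windows of Hk1 and Hk3 the single match was the core of the PU.1 motif (GAGGAA, in 23.3%). None of the 4 windows held the full cAMP response element (TGACGTCA), the C/EBP palindrome (TTGCGCAA), the FOXO and FOXA core (GTAAACA), the AP-1 motif (TGACTCA) or a TATAAA box in these exact letters. The window of Pfkfb2 had a GC content of 66.8% with 11 CpGs and that of Hk1 62.8% with 14, against medians of 52.4% and 6 over all windows, while Pck1 (50.8%, 5 CpGs) and Hk3 (47.2%, 6 CpGs) were near the median. Matches describe these letters and show no binding.

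Across the 4 genes, the gluconeogenic gene had a wide acetylated promoter in both groups, the bifunctional enzyme gene went from a very narrow to a wide region, and the 2 hexokinase genes had a region after PHx and none in sham. A promoter was counted as marked when a region overlapped the TSS or the 1 kb on either side. By this count 2 of 4 genes were marked in PHx only, 2 in both groups and 0 in sham only. Over all 7090 genes 15.4% were marked in PHx only, 66.0% in both and 9.79% in sham only. As the genes were chosen on this very comparison, nothing is read from the difference. The map of regions around each TSS shows the 4 patterns.

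**Figure D1:**
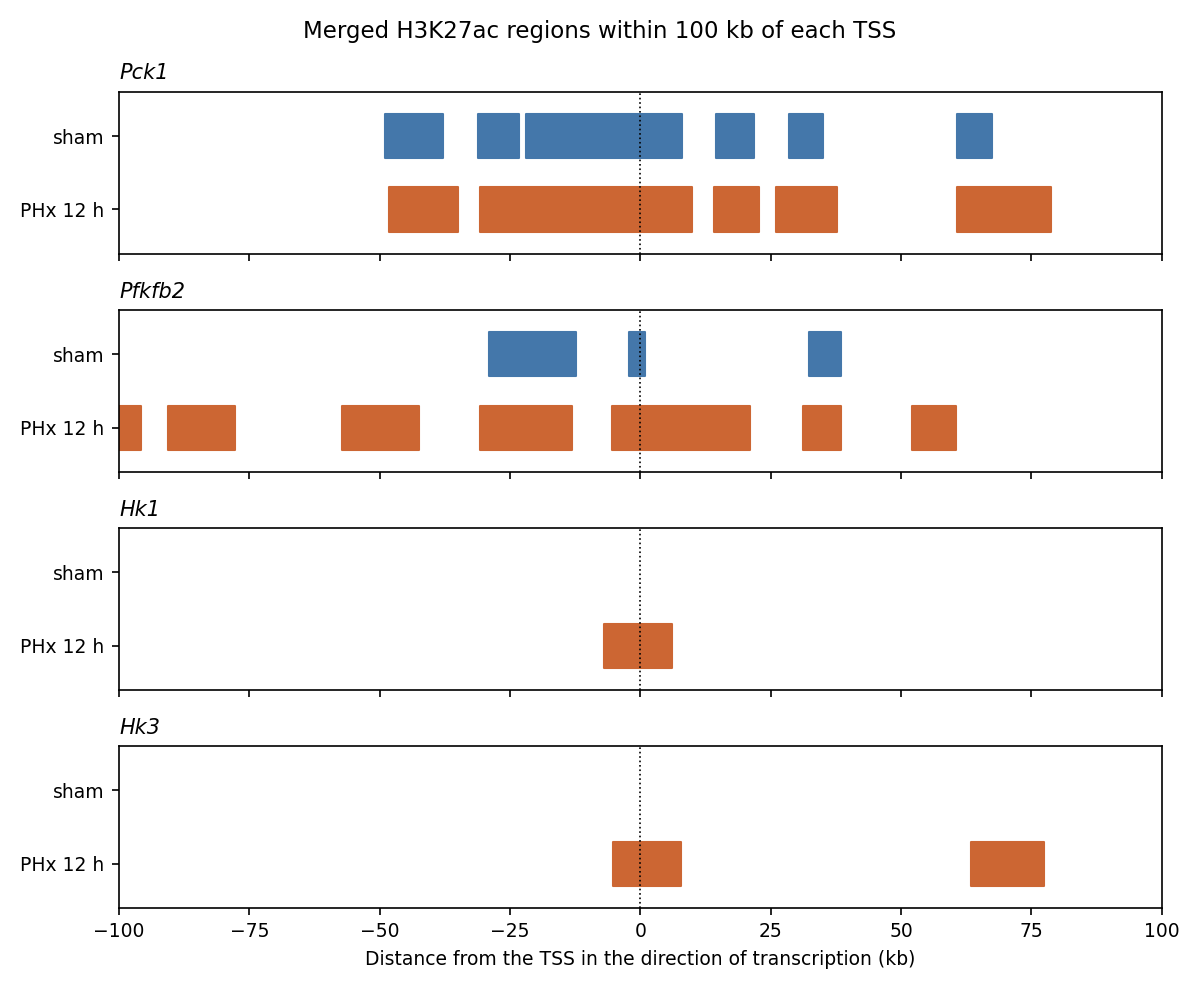
Merged H3K27ac regions within 100 kb of the TSS of Pck1, Pfkfb2, Hk1 and Hk3, as bars against distance from the TSS in kb (positive in the direction of transcription), for sham and for PHx 12 h. Pck1 has 6 sham and 5 PHx regions at nearly the same places, Pfkfb2 has 3 and 7, Hk1 has 0 and 1, and Hk3 has 0 and 2.

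Pck1 lies on the plus strand of chromosome 2 (172994866 to 173001067). In sham its TSS was inside a region of 29765 bp (172973008 to 173002772), and after PHx inside one of 40614 bp (172964181 to 173004794). Both regions covered the whole transcript and passed its end, by 1705 bp (sham) and 3727 bp (PHx), and they reached 21858 and 30685 bp upstream. The sham region was wider than most of its list (97.1st percentile), and the PHx region stood at the 92.2nd percentile of its own. The sham region was joined from 2 peaks of each library, while the PHx region held 1 peak of each. The ratio of the widths was 1.36, and 67.9% of the 4682 genes with a promoter region in both groups had a ratio at least as high.

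The greater width after PHx at Pck1 was largely a joining of neighbours. The PHx region overlapped 2 sham regions, the one at the TSS and a second of 7782 bp at the start of the noncoding gene Ctcflos, which were separated by 1439 bp. Together the sham regions covered 37153 bp of the PHx region, or 91.5% of it, against a median of 69.3% (quartiles 53.6 and 84.1%) over genes marked in both groups. The sham list holds this region under the noncoding gene Gm36691 and the PHx list under Ctcflos, so that neither table names Pck1 at its own promoter. By the authors' assignment Pck1 had only distal intergenic regions.

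Those distal regions were a pair downstream of Pck1, in both groups. The nearer started 14462 bp from the TSS in sham (7416 bp wide) and 14147 bp from it after PHx (8668 bp wide). The farther started at 28461 bp in sham (6660 bp wide) and at 25949 bp after PHx (11776 bp wide). Beyond them came the promoter region of Zbp1, a sensor of nucleic acids, which went from 6789 to 17995 bp, and on the other side that of Ctcfl, with 11227 bp in sham against 13146 bp. No region within 100 kb of Pck1 was found in only 1 group, against 22.5% of all PHx regions without a sham overlap and 14.0% of all sham regions without a PHx overlap.

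Pfkfb2, on the minus strand of chromosome 1 (130616780 to 130643558), had the largest difference in width of the 4. Its promoter region measured 3164 bp in sham (130642638 to 130645801) and 26454 bp after PHx (130622625 to 130649078), a ratio of 8.36. In sham this was among the narrowest regions of the list (0.862nd percentile), and after PHx it stood at the 80.7th percentile. It reached 920 bp into the gene in sham and 20933 bp after PHx, which is most of the transcript, while the upstream side went from 2243 to 5520 bp. The added length was thus mainly over the gene body. A single sham region lay inside the PHx region and covered 12.0% of it, so this width did not come from joining regions already listed. A ratio of 8.36 or more was found at 1.99% of the 4682 genes marked in both groups, and a sham coverage of 12.0% or less at 0.128%. These shares are tied, since with a single sham region inside the PHx region the coverage follows from the ratio of widths. Pfkfb2 was chosen with its promoter regions known, so nothing is read from either share.

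The surroundings of Pfkfb2 also differed between the lists. Of 7 PHx regions within 100 kb, 3 had no sham overlap, at C4bp (8397 bp), which encodes an inhibitor of the classical complement pathway, at Fcamr (12934 bp), which encodes a receptor for immunoglobulins A and M, and at the noncoding gene Gm28856 (14771 bp). Over all PHx regions the share without a sham overlap was 22.5%. The 3 sham regions all overlapped PHx regions. The neighbour AA986860 had regions of 16805 bp (sham) and 17505 bp (PHx) and the pseudogene C4bp-ps1 6202 and 7367 bp, so the nearest flanking regions differed little. A further PHx region, at Gm15848, began 95712 bp away, just inside the window, and overlapped a sham region that lay just outside it at 100534 bp.

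Hk1, on the minus strand of chromosome 10 (62104634 to 62176200), had a single region within 100 kb. It was 13150 bp wide after PHx (62170053 to 62183202), reached 7002 bp upstream and 6147 bp into the first part of the gene, and stood at the 43.4th percentile of its list. The sham list held nothing within 100 kb of the TSS, and its nearest regions lay 142439 bp away on one side, near Vps26a, and 615887 bp away on the other, near Aifm2. Its neighbour in RefSeq order, Hkdc1, which encodes a further hexokinase, had no listed TSS, nor did Tacr2, Tspan15 and Supv3l1 nearby.

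Hk3, on the minus strand of chromosome 13 (55153798 to 55168632), had a region of 12971 bp after PHx (55160867 to 55173837) that reached 5205 bp upstream and covered 7765 bp of the gene. It stood at the 42.5th percentile of PHx widths. A second PHx region, of 13960 bp at the noncoding gene Gm31313, began 63408 bp beyond the TSS in the direction of transcription. In sham there was none within 100 kb, with the nearest at 130235 bp (Fgfr4) and 323991 bp (Rnf44). Of the 7090 genes 3.86% had no sham region but at least 1 PHx region within 100 kb, among them Pgk1, Pdk4 and Ly86. As Hk1 and Hk3 were chosen with their promoter regions known, nothing is read from this share. Both hexokinase regions were close in width to the median of PHx-only promoters, which was 13403 bp (quartiles 9714 and 21514 bp).

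Absence of Hk1 and Hk3 from the sham list does not mean that neither sham library had a peak there. A region was listed only where both libraries of a group had a peak, and peak numbers run in genomic order, so numbers that are skipped between listed regions belong to peaks that were not listed. Between the sham regions flanking Hk1, 4 numbers of library 1 and 5 of library 2 were skipped, and between those flanking Hk3, 3 and 1. These stretches are long, and where in them the peaks lay cannot be read from the table. Such numbers are the rule, since only 10.2% of 1084 PHx-only genes lay in a sham stretch without them. At Pck1 and Pfkfb2 no number was skipped next to the promoter region in either group. All 15 PHx regions around the 4 genes were made of 1 peak per library, and 7 of the 9 sham regions were.

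The length covered by regions within 100 kb of the TSS sums up each locus. At Pck1 it went from 69639 to 92199 bp, which is 34.8 and 46.1% of the window and a ratio of 1.32. At Pfkfb2 it was 26171 and 91717 bp, or 13.1 and 45.9%, a ratio of 3.5, which was 2.25 within 50 kb and 2.25 within 200 kb. At Hk1 it was 0 and 13150 bp (6.57%), and at Hk3 0 and 26931 bp (13.5%). The covered length was greater after PHx at 88.2% of 7082 genes with any region in the window, and the median ratio was 1.48 (quartiles 1.19 and 1.96). Pck1 was therefore below the median and Pfkfb2 above the upper quartile, with 5.71% of genes at a ratio as high. Relative to the total length covered by each list, Pck1 had less after PHx than in sham (0.817) and Pfkfb2 more (2.16). This division changes the ratio of every gene by the same factor, so their standing against all genes is unchanged.

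**Figure D2:**
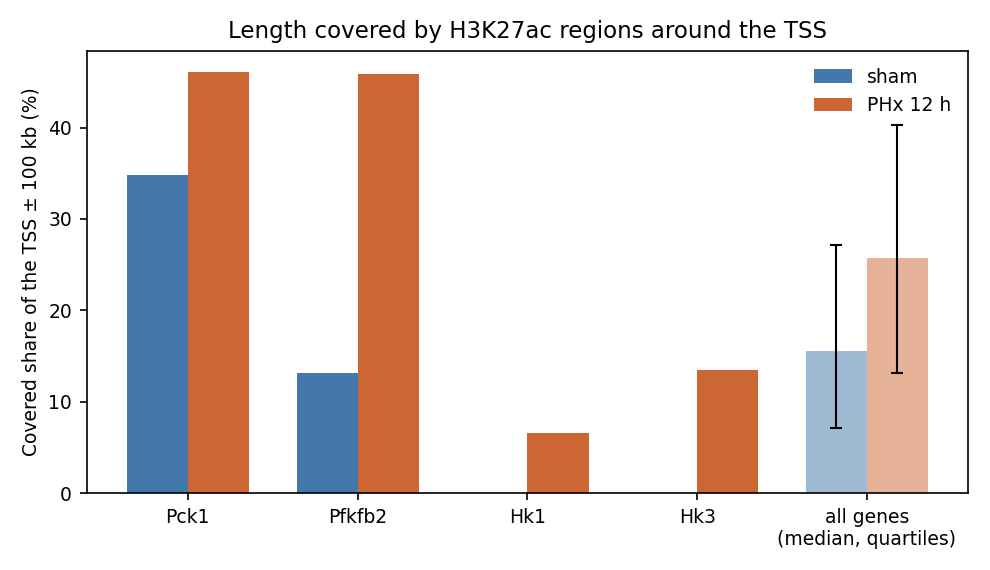
Share of the 100 kb on either side of the TSS covered by H3K27ac regions, in percent, for sham and PHx 12 h. Bars are single values of the merged lists; the pale bars are the median over 7090 genes and their error bars the quartiles. Pfkfb2 reaches 45.9% after PHx from 13.1%, whereas Pck1 has 34.8% already in sham.

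Set against the other enzymes of their pathway, the hexokinases were not alone among glycolytic genes in having a PHx-only promoter, and no gluconeogenic gene had one. Of 22 glycolytic enzyme genes 15 had a listed TSS. The other 7 were not counted, although a region listed under another name may cover some of them, as it did Pck1. Both lists marked 11 of these, only the PHx list marked 4, and only the sham list marked 0. Besides Hk1 and Hk3 the PHx-only genes were Pgk1 (10636 bp), which encodes phosphoglycerate kinase, and Pgam1 (7436 bp), which encodes phosphoglycerate mutase. The Pgam1 region was narrow for its list (9.04th percentile), and that of Pgk1 stood at the 28.1st. Leaving out the chosen Hk1 and Hk3, 2 of 13 were PHx only, or 15.4%, the same share as over all genes. Of 13 gluconeogenic genes 10 had a listed TSS, and all 10 were marked in both groups, against 66.0% of all genes. By the authors' own promoter assignment it was 7 of 10. The lists are small, they were chosen with earlier results known, and the difference between them was not tested.

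Among the glycolytic genes marked in both groups, 6 of 11 had a region at least 1.5 times wider after PHx, where 59.9% of all genes marked in both did, and the median ratio was 2.03 against 1.72 for all. Regions were wider throughout the PHx list, with a median of 14550.5 bp over all regions against 8152.5 bp in sham. With each width divided by the median of its list, the median ratio of the glycolytic genes was 1.14. Pfkl, the liver phosphofructokinase gene, measured 7113 and 9474 bp, and Pklr, which encodes the liver pyruvate kinase, 10943 and 22217 bp. Gapdh had 5139 and 18849 bp, and only 27.3% of its PHx region was covered in sham. Aldoa, the aldolase gene of muscle and of growing tissue, had 6852 and 46964 bp, but there sham regions covered 71.2% of the PHx region. Ldha, lactate dehydrogenase A, measured 27029 and 33617 bp, and Eno3 was the single gene that was not wider after PHx, with 18956 and 18776 bp.

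The gluconeogenic genes had a median ratio of 1.58, against 1.72 for all genes marked in both. Relative to the list medians the ratio of 1.58 became 0.885. Without the chosen Pck1 the median ratio was 1.71, or 0.96 relative to the list medians. Dividing by the list medians changes the ratio of every gene by the same factor, so the standing of the list against all genes is unchanged. A region at least 1.5 times wider was found at 5 of 10, against 59.9% of all genes marked in both. Fbp1, the fructose bisphosphatase gene, had nearly equal regions of 18036 and 19636 bp. Pcx, which encodes pyruvate carboxylase, had 14584 and 24976 bp, and G6pc, the catalytic subunit of glucose-6-phosphatase, 16362 and 34459 bp. The share of the PHx region covered in sham was 91.5% at Pck1, 89.2% at Pcx, 85.9% at Fbp1 and 65.5% at G6pc. It was 69.2% at Got1, 55.3% at G6pc3 and 37.4% at Gpt2. The median over the 10 genes was 85.6%, against 69.3% over all genes marked in both. G6pc3, the widely expressed relative of G6pc, had the highest ratio of the list at 6.73 (8567 and 57666 bp). Mdh1, the cytosolic malate dehydrogenase gene, was the single one narrower after PHx, with 7465 and 6398 bp.

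**Figure D3:**
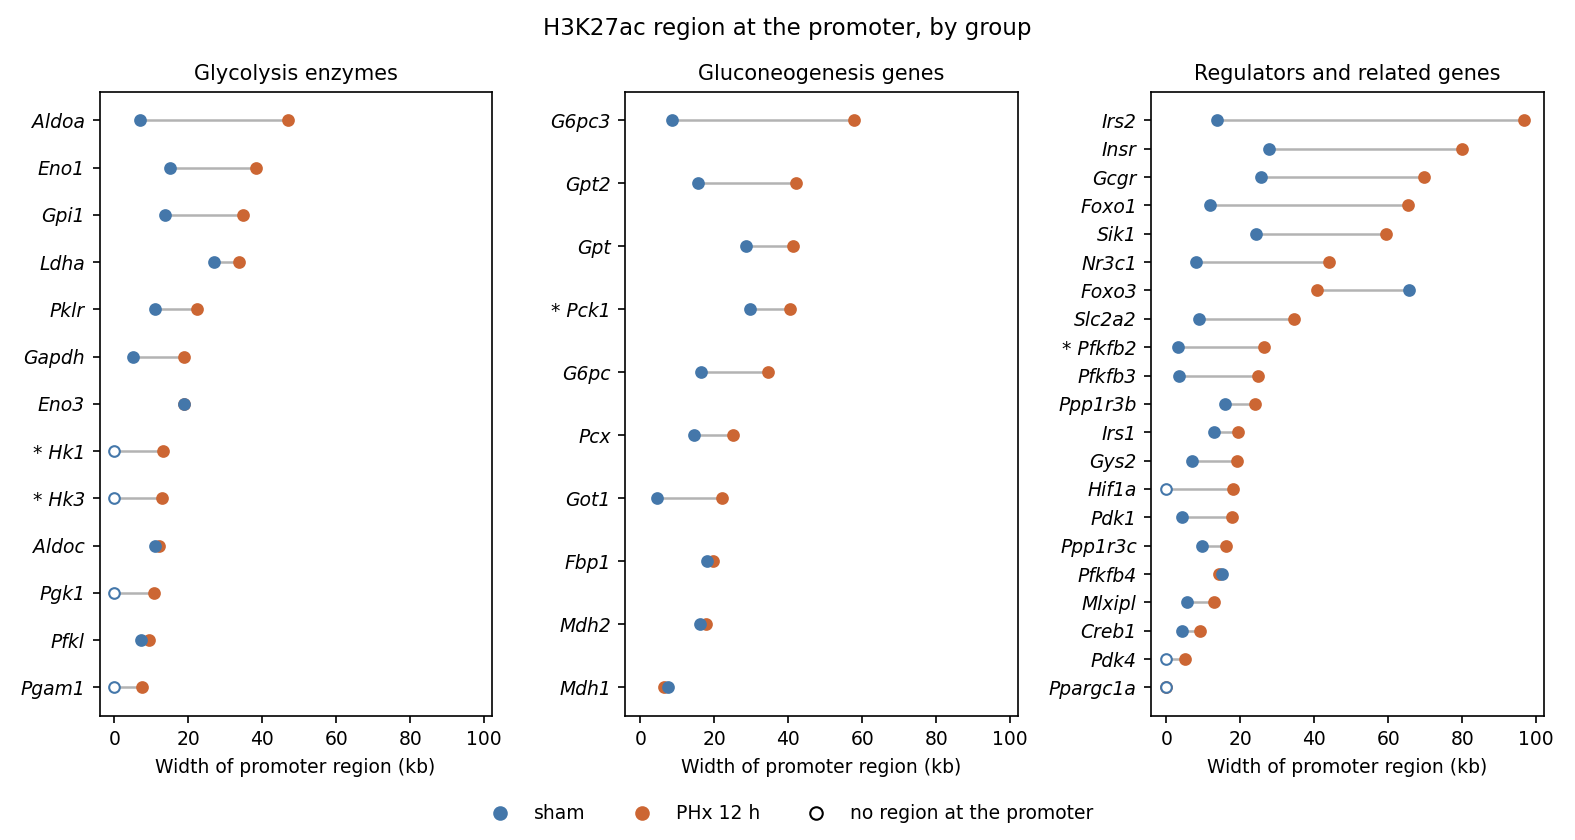
Width in kb of the H3K27ac region at the promoter of listed genes in sham (blue) and PHx 12 h (orange), for glycolytic enzymes, gluconeogenic genes and regulators; open points at 0 mark no region, and asterisks mark the 4 chosen genes. A pair of glycolytic genes counted in the text is not drawn. Open sham points with a PHx region are Hk1, Hk3, Pgk1 and Pgam1 among glycolytic enzymes, Hif1a and Pdk4 among regulators, and none among gluconeogenic genes.

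Within the family of bifunctional enzymes the wide PHx region of Pfkfb2 differed in its make-up from that of Pfkfb3. Pfkfb3, the strongly kinase-directed form induced by hypoxia and growth signals, went from 3575 to 24721 bp, a ratio of 6.91. Its PHx region was already covered by sham regions over 85.3% of its length, because a sham region of 17512 bp that the authors annotated to intron 1 lay beside the narrow promoter region. At Pfkfb2 that share was 12.0%. Pfkfb4 had regions of 15057 and 14254 bp, and Pfkfb1, the main liver form, had no listed TSS. At these upstream starts, ratios of 6.91 and 8.36 thus stood beside sham coverages of 85.3 and 12.0%, as the plot of width ratio against sham coverage shows.

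**Figure D4:**
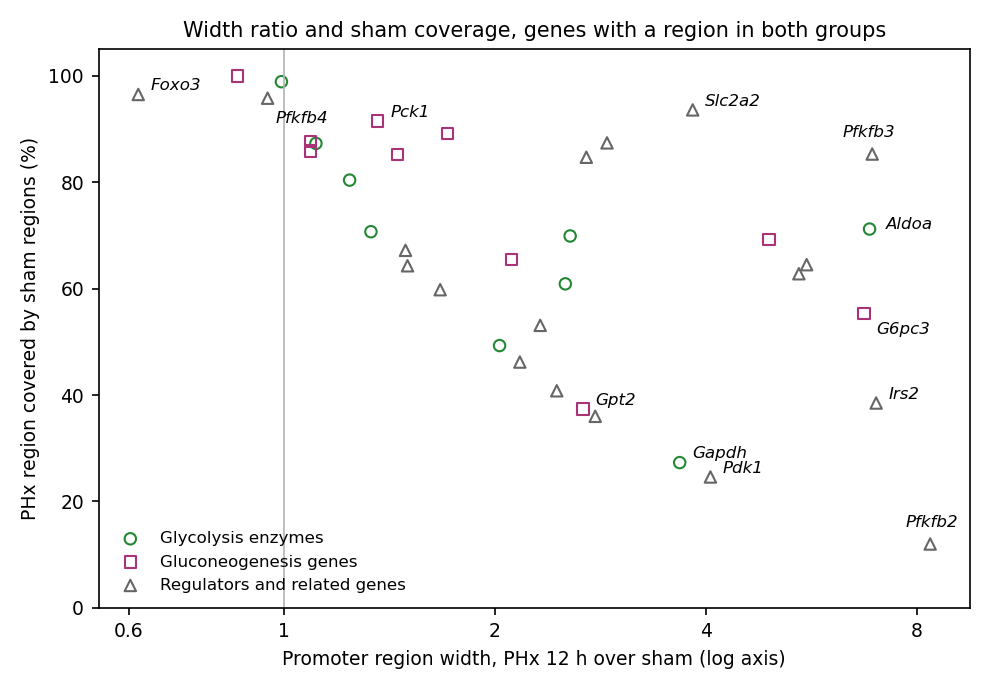
Ratio of promoter region width, PHx 12 h over sham (log axis), against the percent of the PHx region covered by sham regions, for glycolytic (without the same pair), gluconeogenic and regulator genes marked in both groups. Pfkfb2 (8.36, 12.0%) lies at the lower right, Pfkfb3 (6.91, 85.3%) at the upper right, and Pck1 (1.36, 91.5%) at the upper left; a sham region inside the PHx region sets a lower limit on the share at 100 divided by the ratio.

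Of 28 regulator genes 21 had a listed TSS. Both lists marked 18 of them, only the PHx list marked 2, only the sham list 0, and neither marked 1. The PHx-only share over all genes was 15.4%. The median ratio was 2.74, or 2.7 without Pfkfb2, against 1.72 for all genes, and it was 1.54 relative to the list medians. A region at least 1.5 times wider was found at 15 of 18, against 59.9% of all genes marked in both. On the hormonal side, Gcgr, the glucagon receptor gene, went from 25756 to 69610 bp, and Insr, the insulin receptor gene, from 27701 to 80068 bp. Irs2, an adaptor of insulin signalling, went from 13831 to 96764 bp. Its relative Irs1 went from 13042 to 19421 bp, a ratio of 1.49 and below the median for all genes. Both Irs2 regions and the PHx region of Gcgr were listed under other genes. Sham regions already covered 84.7% of the PHx region at Gcgr, 87.4% at Insr and 38.5% at Irs2, against a median of 69.3%. The ratios of covered length within 100 kb were 1.24, 1.34 and 2.68, against a median of 1.48. Foxo1, the insulin-restrained activator of Pck1 and G6pc, had 11738 and 65394 bp. The TSS region of its relative Foxo3 was narrower after PHx, with 65747 and 40714 bp. PHx regions still covered 92.5% of that sham region, and the covered length within 100 kb of Foxo3 was 84641 and 89627 bp. A region at least 1.5 times narrower was found at 1.41% of all genes marked in both. Slc2a2, the glucose transporter of hepatocytes, had 9002 and 34486 bp, with 93.6% of the PHx region covered in sham. Pdk4, which encodes an inhibitor of pyruvate dehydrogenase, was in PHx only (5207 bp). That region was among the narrowest of its list (1.36th percentile).

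Some of these calls rest on which start site is read. Hif1a, the hypoxia factor, was PHx only at its most upstream start, but with its other listed start it was marked in both (5291 and 18067 bp). Ppargc1a, the coactivator of fasting gluconeogenesis, was marked at neither upstream window and in both groups at an internal start (6236 and 10791 bp). At Mlxipl, the glucose-sensing factor ChREBP, the upstream start gave 5524 and 12808 bp, while the widest region over both starts was 26122 bp in sham and 23764 bp after PHx, which turns the direction. For Pfkfb3 the widest region over both starts was 3575 bp in sham and 38190 bp after PHx, the latter at the other start, and for Pcx 14584 and 37496 bp. Pck1, Pfkfb2, Hk1 and Hk3 each had 1 listed start.

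The tissue label was checked on marker genes. All 8 hepatocyte markers with a listed TSS, of 10, were marked in both groups, among them Alb (10096 and 18025 bp) and Ttr (31068 and 41219 bp). Markers of Kupffer and other myeloid cells are given beside Hk3. Of 17 such genes 9 had a listed TSS, of which 5 (Csf1r, Cd14, Ly86, Mpeg1 and Pld4) were in PHx only, 4 (Cd68, C1qa, Spi1 and Fcer1g) in both and 0 in sham only. The regions counted for Fcer1g were listed under other genes, in sham under the apolipoprotein gene Apoa2 (23778 bp) and after PHx under Adamts4. The shares over all genes were 15.4% in PHx only and 66.0% in both. The PHx regions of Ly86 (14412 bp), Mpeg1 (11495 bp) and Pld4 (13336 bp) were, like that of Hk3, without any sham overlap, which held for 69.4% of the 1091 PHx-only genes. Within 100 kb, sham regions covered 0 bp at Ly86 and Hk3, 12828 bp at Mpeg1 and 54656 bp at Pld4. The PHx regions of Csf1r and Cd14 did overlap a sham region, over 30.9 and 68.6% of their length. Whether the myeloid markers and Hk3 move together for a shared reason was not tested. In bulk tissue more cells of a type and more acetylation per cell cannot be told apart. Hepatectomy and the time and state of the animals at sampling cannot be told apart either.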

How the data were processed

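H3K27ac CUT&Tag was run on frozen liver with 150 bp paired-end reads, per the labels' protocols. Tools listed in the submitters' processing notes, without versions or roles, are DiffBind, ChIPseeker, SEACR and Bowtie2, and the builds are GRCm39 and mm39. The authors deposited 1 table per group, in which each region joins peaks of both libraries; positions and widths are in bp, per the file headers, and no source used here gives the calling thresholds.

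The tables were read with Python 3.11.15, pandas 2.3.3 and numpy 2.4.6. Each gene's TSS was its listed start farthest upstream. Regions were shared when they overlapped by at least 1 bp. A wide region listed under another gene counted at any TSS it covered. Protein-coding genes, gene order and promoter sequences came from RefSeq GRCm38.p6 by symbol. Only genes named in a table entered the comparison. Counting was tested on simulated regions. No test between groups was possible, as no library has its own values, and p-values are not given. The labels do not say that the 2 libraries came from separate animals.

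The 4 genes and the gene lists were chosen with earlier results of these data known. All 4 genes were named in full, list genes could be named where their list is described, and neighbours were mainly those assigned to a region within 100 kb. Marker genes, RefSeq neighbours and genes of the authors' pathway column were named after their values were seen. A pair of glycolytic genes enters the counts and medians of its list but is not reported here singly. The coverage of PHx regions by sham regions was added after the tables were seen.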

Additional observations from a re-analysis of the deposited data

How the results depend on the processing

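Of 41 values computed under other settings, 32 were equal to the value given or within 1.5 times of it. With the TSS base alone, with 3 kb on either side, or with every listed start, the states of the 4 genes were the same. By the authors' own promoter assignment 1 of 4 genes was marked in both groups, because Pck1 is not named at its promoter. With only regions at or above the lower quartile of width in each list, 1 was also marked in both, as the sham region of Pfkfb2 is too narrow, and 3 were then in PHx only. Dividing widths by the median of their list gave a median ratio of 1.14 for glycolytic genes and 0.885 for gluconeogenic genes, which turns the latter. Dividing by the covered length of each list gave 0.817 at Pck1, which turns it, and 2.16 at Pfkfb2. At Pfkfb2 the ratio was 2.25 within 50 kb and 2.25 within 200 kb. Distal regions in sham only were 2 with a reciprocal overlap of 50%, against 0 with 1 bp. Depth is unknown, so a missing region may lie under the detection limit. Leaving out single libraries was not possible, since regions are merged. No paired analysis was possible because the tables hold no values per library.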

Other observations

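The authors' pathway column assigns 39 protein-coding genes with a listed TSS to glycolysis and gluconeogenesis, a wider set than the enzymes above. Both lists marked 30 of these, only the PHx list marked 8, only the sham list 0, and neither marked 1. The set includes the chosen Pck1, Hk1 and Hk3, and Hk1 and Hk3 are among its PHx-only genes. Of the 20 genes outside the lists described in the report, 15 were marked in both, 4 in PHx only and 1 in neither. Over all genes 66.0% were marked in both and 15.4% in PHx only. The median width ratio in the whole set was 1.59, against 1.72 for all genes marked in both. Outside the lists described in the report, the PHx-only genes of this set were Adh4 (12120 bp), an alcohol dehydrogenase of liver, Aldh1b1 (24717 bp), a mitochondrial aldehyde dehydrogenase, Bpgm (13997 bp), which makes bisphosphoglycerate, and Minpp1 (18079 bp), a phosphatase of inositol polyphosphates. Sham regions covered 82.3% of the Adh4 region, which ended 9 bp past the TSS, and 29.8% of the Minpp1 region, so at both the mark was listed nearby in sham, outside the 1 kb around the TSS. Among 10 alcohol and aldehyde dehydrogenase genes, 7 were marked in both, with Aldh7a1 at 5220 bp in sham and 28185 bp after PHx. Adh5, which removes formaldehyde, had a narrower region after PHx (10996 and 8003 bp). Of the links between glycolysis and the citrate cycle, Pdhb, a subunit of pyruvate dehydrogenase, had 6498 and 30060 bp, and Dlat, another subunit of that complex, 3342 and 4308 bp. These genes were singled out after their values were seen.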
